A study of Mus musculus with 12 samples.

Results

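The cell cycle and DNA replication genes are a given list of 43 genes that act in entry into the cell cycle, in copying DNA and in dividing the chromosomes. Members were matched by gene symbol to probe sets that carry 1 symbol, and a gene with several such probe sets was read from the one of highest mean. Of the 43 genes, 41 were matched, among 19935 genes measured in all, and Ccnb1 and Cdkn1a are not analysed here. A probe set was tested where it lay above the 40th percentile of its own array on at least 2 of the 12 arrays, which left 32 of the 41 members and 13987 of all genes. The 9 members too dim to test were Mki67, Bub1, Kif11, Cenpe, Cenpf, Nusap1, Tpx2, Cdc6 and Foxm1.

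Transcripts were measured in whole liver of female C57BL/6 mice, 3 months old, whose ovaries had been removed 1 week before the injections began, so every group lacked the ovarian source of oestrogen. The mice were wild type, ERKO (a knockout of oestrogen receptor alpha) or MOER (receptor alpha at the cell membrane alone). Each genotype received either oil, 0.1 mL, or 100 µg a day of PPT, a compound that activates receptor alpha selectively, by intraperitoneal injection for 3 days. Liver RNA of 3 animals was pooled for each array, and the experiment was done a second time, which gives 6 groups of 2 arrays on a whole-transcript Affymetrix mouse gene array. Which promoter drives the membrane receptor in MOER mice is not stated in the labels. Nothing in the labels says whether the pools of a group shared animals, so a p-value here covers the spread between 2 pools, which may be partly technical.

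Most hepatocytes of the adult liver rest outside the cell cycle and can return to it. D-type cyclins with their kinases, and the transcription factor Myc, act early in that return. Release of E2F factors from the retinoblastoma family then switches on cyclin E and the genes of DNA synthesis, among them the MCM subunits of the replicative helicase. The genes of mitosis follow later, under the FOXM1, B-MYB and MuvB factors, many of them through the promoter elements called CHR and CCAAT box.

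Values are the deposited linear hybridisation intensities. Array medians ran from 77.5 to 85.26 and 40th percentiles from 53.576 to 60.98. The paired arrays of a group correlated at r = 0.994 to 0.996 over all probe sets, apart from the ERKO oil pair at 0.983, in which 162 probe sets differed by over 2-fold against 2 to 21 in the other pairs. Esr1, the gene of oestrogen receptor alpha, read 309 to 365 on the 4 wild type arrays, 117 to 131 on the 4 MOER arrays and 118 to 162 on the 4 ERKO arrays, so its probe set does not tell MOER from ERKO. The summed intensity of 7 hepatocyte markers was 75500 to 100400, with none of them dim on both arrays of any group. Markers of the pancreatic acinar cell summed to 35710 and 45770 on the MOER oil arrays and to 429 to 678 on the other 10.

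Because the members are known to share promoter elements, sequences from 250 bases before to 50 bases after the gene's start are shown for 6 of them, as given by RefSeq on mouse build GRCm38.p6 and printed 5′ to 3′ on the gene's strand. Capitals mark 3 kinds of word on either strand: the E2F words TTTCCCGC, TTTCGCGC, TTTGCCGC and TTTGGCGC, the CHR words TTTGAA and TTTAAA, and the CCAAT box. E2F words that overlap on opposite strands, as in Mcm5 and Mcm6, appear as 1 longer run. Mcm3 (chr1:20820263-20820562, minus strand), Mcm5 (chr8:75109259-75109558, plus strand) and Mcm6 (chr1:128359656-128359955, minus strand) are shown as helicase genes that rose with PPT in wild type livers. Cdk1 (chr10:69352863-69353162, minus strand) and Top2a (chr11:99024140-99024439, minus strand) are shown as mitotic genes that rose there, and Ccnb2 (chr9:70421505-70421804, minus strand) as a mitotic gene that did not pass the test.
Mcm3: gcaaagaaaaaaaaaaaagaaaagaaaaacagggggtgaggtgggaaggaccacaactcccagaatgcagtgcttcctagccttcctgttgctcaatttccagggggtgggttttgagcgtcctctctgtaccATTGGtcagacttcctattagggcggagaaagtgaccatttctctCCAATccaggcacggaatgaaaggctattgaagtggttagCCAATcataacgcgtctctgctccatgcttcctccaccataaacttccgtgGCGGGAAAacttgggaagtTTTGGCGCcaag
Mcm5: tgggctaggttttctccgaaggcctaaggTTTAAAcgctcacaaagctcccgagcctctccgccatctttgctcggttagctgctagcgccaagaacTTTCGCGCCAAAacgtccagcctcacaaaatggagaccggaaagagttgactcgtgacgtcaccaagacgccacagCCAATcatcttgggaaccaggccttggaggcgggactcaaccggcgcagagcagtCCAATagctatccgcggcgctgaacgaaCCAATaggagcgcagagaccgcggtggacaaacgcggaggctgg
Mcm6: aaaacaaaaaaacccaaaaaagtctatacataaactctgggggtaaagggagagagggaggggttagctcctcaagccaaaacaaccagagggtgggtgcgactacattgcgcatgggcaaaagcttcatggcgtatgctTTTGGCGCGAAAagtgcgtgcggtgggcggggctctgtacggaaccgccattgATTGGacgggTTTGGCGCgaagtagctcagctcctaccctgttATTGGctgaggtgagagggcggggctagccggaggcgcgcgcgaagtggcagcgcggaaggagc
Cdk1: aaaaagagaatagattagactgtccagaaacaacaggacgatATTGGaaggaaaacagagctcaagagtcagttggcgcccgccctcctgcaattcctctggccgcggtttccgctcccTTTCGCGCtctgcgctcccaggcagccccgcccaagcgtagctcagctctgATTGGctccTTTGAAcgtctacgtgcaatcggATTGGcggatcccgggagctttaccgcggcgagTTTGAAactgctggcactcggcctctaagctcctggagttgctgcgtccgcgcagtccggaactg
Top2a: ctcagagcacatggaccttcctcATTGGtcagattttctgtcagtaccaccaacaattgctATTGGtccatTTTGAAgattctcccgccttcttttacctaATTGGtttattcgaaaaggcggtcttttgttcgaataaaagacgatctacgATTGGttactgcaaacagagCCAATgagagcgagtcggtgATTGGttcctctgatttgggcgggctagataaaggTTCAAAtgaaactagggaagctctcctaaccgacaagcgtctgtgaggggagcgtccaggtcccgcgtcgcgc
Ccnb2: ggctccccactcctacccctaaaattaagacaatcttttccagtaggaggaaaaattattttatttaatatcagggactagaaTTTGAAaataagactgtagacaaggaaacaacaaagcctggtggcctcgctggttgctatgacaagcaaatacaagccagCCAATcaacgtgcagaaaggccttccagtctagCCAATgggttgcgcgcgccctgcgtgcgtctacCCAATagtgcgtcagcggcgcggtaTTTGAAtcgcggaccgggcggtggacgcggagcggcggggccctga

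Promoter entries were found for 30 of the 41 members and for 27025 genes in all. An E2F word stood in 7 of the 30, that is 23.3% against 2.6% of all promoters, in Cdc6, Cdk1, Cdt1, Mcm3, Mcm5, Mcm6 and Mcm7. Of these 7, Cdc6 was too dim to test and the other 6 rose in wild type livers given PPT. Of 12 members with an entry that rose there, 6 had an E2F word. Mcm2, Pcna, Rrm1, Rrm2, Top2a and Plk1 rose without one in this window. Mcm7 is counted through 1 entry, and another Mcm7 entry held 0 E2F words. A CHR word stood in 18 of the 30, or 60%, against 30.6% of all promoters, and in 12 of 14 promoters of mitotic members. The CCAAT box stood in 21 of the 30, or 70%, against 41.1%. The full oestrogen response element, GGTCA and TGACC with 3 bases of any kind between them, was found in 0 of the 30 and in 0.074% of all promoters. A match describes letters in this window and is not evidence of binding.

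The first comparison asks what the agonist does to these genes in animals with an intact receptor. PPT raised 18 of the 32 tested members in wild type animals, and 0 fell (limma, Benjamini-Hochberg adjusted p under 0.05). Of all 19119 probe sets tested, 14.8% rose and 16.2% fell. The members that rose were Myc, the G1 cyclins Ccnd1 and Ccne2, 9 of the 10 tested genes of replication licensing and the fork, both ribonucleotide reductase genes, and 4 of 11 tested genes of mitosis. Over all 41 members the median log2 change was 0.51, against 0.029 over all genes. In whole liver, more cells in cycle and more RNA per cell cannot be told apart. Aurkb, Birc5 and Myc passed the limit on dim values only through the wild type PPT arrays, so Myc could pass it only by being high there. With the limit set on the MOER and ERKO arrays alone, an alternative chosen after the values were seen, 16 members rose. By the methods' rule for this study, a Cyber-T-style test at p under 1e-04 with a change of at least 2-fold, 9 members rose, where 5.91% of all probe sets were called.

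**Figure D1:**
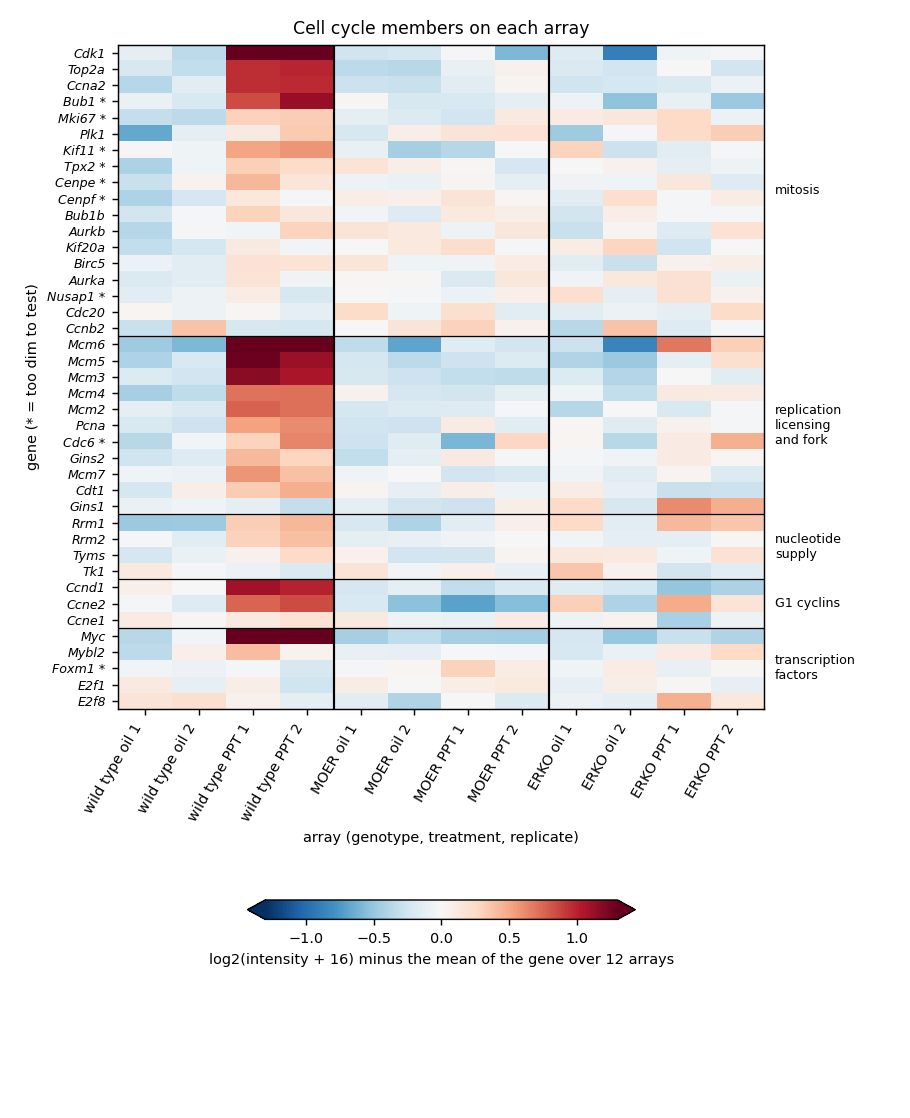
Each cell is log2(intensity + 16) of a member on an array minus that gene's mean over the 12 arrays, with members grouped by role and an asterisk on those too dim to test. Values beyond the ends of the colour scale share the end colour, and the deepest red cells all lie in the columns of the 2 wild type PPT arrays.

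Myc, a transcription factor that promotes growth and cycling, read 44.3 and 59.4 on the wild type oil arrays and 226 and 247 after PPT. On the 8 MOER and ERKO arrays it read 38.7 to 50.3, each under the 40th percentile of its array, so only the 2 wild type PPT arrays stood high. The wild type rise was 1.91 ± 0.13 on the scale of log2(intensity + 16), used for all changes and given with its standard error (adjusted p = 1.19e-06). Ccnd1, the D-type cyclin that opens G1, read 328 and 315 under oil and 683 and 644 under PPT in wild type livers, with no overlap, and 216 to 284 on the MOER and ERKO arrays. It rose by 1.01 ± 0.09 (adjusted p = 1.03e-05). Ccne2, a cyclin E, was dim under oil at 47.0 and 40.5 and read 91.1 and 98.1 after PPT. That is a rise of at least 1.75-fold against the limit of detection used here, and the fitted change was 0.89 ± 0.21 (adjusted p = 0.0072). Left without replicate 2 of wild type oil, the Ccne2 call was lost. The other cyclin E, Ccne1, read 73.9 and 68.8 and then 75.1 and 79.3, a change of 0.09 ± 0.13 that did not pass the test (adjusted p = 0.625).

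None of the other transcription factors on the list was called in wild type livers. E2f1, an activator of S phase genes, read 194 and 164 under oil and 190.1 and 146 under PPT, with overlapping arrays and a change of -0.09 ± 0.13 (adjusted p = 0.667). E2f8, a repressor of the same family, read 87.0 and 90.2 under oil and 79.3 and 68.3 under PPT, lower on both PPT arrays, a change of -0.22 ± 0.13 (adjusted p = 0.235). Mybl2, which encodes B-MYB, changed by 0.36 ± 0.15 (adjusted p = 0.0854), and its arrays overlapped at 59.7 and 84.2 against 111 and 83.3. Foxm1 was dim on all 12 arrays, at 25.9 to 43.5.

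The MCM complex is the helicase that unwinds DNA at the fork. All 6 MCM subunit genes rose in wild type livers, and in each the 2 PPT arrays lay above both oil arrays. Of all probe sets tested, 72.2% had no overlap there in either direction. Mcm6 read 90.5 and 82.2 under oil and 345 and 347 under PPT, a rise of 1.82 ± 0.19 (adjusted p = 3.13e-05). For Mcm5 the arrays read 60.1 and 71.9 and then 227 and 204, which gave 1.498 ± 0.13 (adjusted p = 6.3e-06). Mcm3 went from 66.7 and 62.7 to 195 and 179, or 1.33 ± 0.10 (adjusted p = 2.8e-06). These 3 are the helicase genes whose promoters are printed above, each with at least 2 E2F words. An Mcm7 entry also held 2 E2F words and the Mcm2 entry held 0. Whether the words go with the size of the rise was not tested. Mcm4 read 52.3 and 57.3 under oil and then 133 and 135, a rise of 1.09 ± 0.12 (adjusted p = 4.33e-05). Mcm2 rose by 0.90 ± 0.12 (adjusted p = 0.000259), from 88.3 and 83.7 to 177 and 171. The smallest rise of the 6 was that of Mcm7, 0.55 ± 0.10 (adjusted p = 0.00205), with 134 and 132 under oil and 216 and 187 under PPT.

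Pcna, the sliding clamp that holds polymerases on DNA, read 1088 and 1039 under oil and 1803 and 1926 under PPT, a rise of 0.80 ± 0.11 (adjusted p = 0.000209). A second Pcna probe set gave 0.81. Cdt1, which loads the helicase before S phase, read 42.8 and 56.3 under oil and 70.4 and 79.3 under PPT and rose by 0.48 ± 0.12 (adjusted p = 0.0123). The Cdt1 call was lost without replicate 1 of wild type oil and without replicate 2 of wild type PPT. Gins2, a subunit of the GINS complex at the fork, rose by 0.57 ± 0.10 (adjusted p = 0.00139) from 54.1 and 58.8 to 97.0 and 86.4. Gins1 of the same complex read 157 and 161 under oil and 154 and 133 under PPT, a change of -0.14 ± 0.16 that did not pass (adjusted p = 0.556). Cdc6, the partner of Cdt1 in loading, was too dim to test, with 19.9 and 28.9 under oil and 40.5 and 55.6 under PPT.

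**Figure D2:**
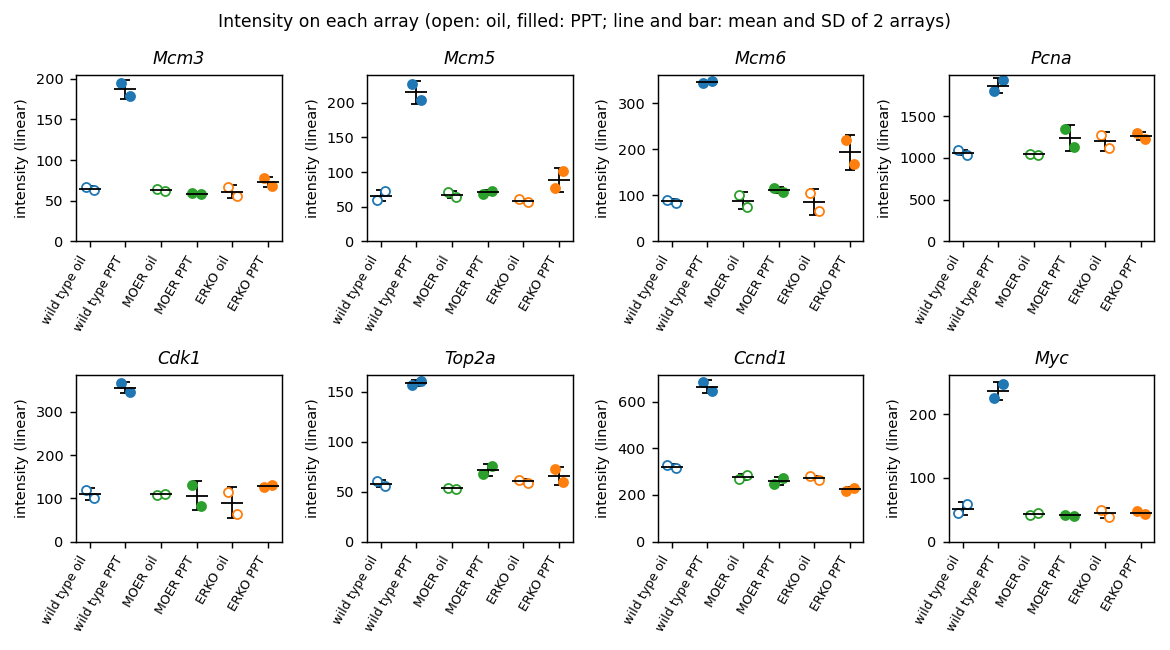
Linear intensity on each array for 8 members, with open points for oil and filled points for PPT, and the line and bar giving the mean and SD of 2 arrays. In each of the 8 panels the wild type PPT arrays lie above every other array, and for Mcm6 the ERKO PPT arrays, at 219.9 and 167, lie above the remaining arrays.

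Genes that supply nucleotides split. Rrm1, the large subunit of ribonucleotide reductase, read 180.0 and 180.2 under oil and 325 and 351 under PPT in wild type livers, a rise of 0.85 ± 0.14 (adjusted p = 0.000687). Rrm2, the small subunit, rose by 0.43 ± 0.09 (adjusted p = 0.00452), with 73.4 and 66.3 and then 95.9 and 103, a call lost without replicate 2 of wild type oil and without replicate 2 of wild type PPT. Thymidylate synthase, Tyms, read 143 and 159 under oil and 177 and 204 under PPT and changed by 0.30 ± 0.14, which did not pass (adjusted p = 0.131). Thymidine kinase, Tk1, read 216 and 195 under oil and 186 and 171 under PPT, -0.19 ± 0.12 (adjusted p = 0.3). Its second probe set fell from a mean of 192 to 133, a change of -0.48 (adjusted p = 0.00546), so the Tk1 probe sets disagree on whether the gene passed.

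Among the genes of mitosis Cdk1, the kinase that drives entry into mitosis, read 120.2 and 100.92 under oil and 366 and 346 under PPT and rose by 1.56 ± 0.22 (adjusted p = 0.000289). Its cyclin partner Ccna2 read 87.1 and 105 and then 243 and 244, a rise of 1.22 ± 0.10 (adjusted p = 6.33e-06). Top2a, the topoisomerase that untangles sister chromosomes, read 60.9 and 55.4 under oil and 157 and 161 under PPT, with no overlap, and rose by 1.24 ± 0.10 (adjusted p = 5.47e-06). A second Top2a probe set was dim at means of 19.1 and 18.1 and changed by -0.05. Plk1, a mitotic kinase, read 49.8 and 80.3 and then 97.1 and 116, a rise of 0.62 ± 0.19 (adjusted p = 0.0306). The Plk1 call was lost without replicate 1 of wild type oil and without either wild type PPT replicate.

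The other 7 tested genes of mitosis did not pass the test in wild type livers, and their changes ran from -0.26 to 0.35. Ccnb2, a B-type cyclin, had its oil arrays on both sides of the PPT arrays, 189.8 and 309 against 201 and 199, a change of -0.26 ± 0.24 (adjusted p = 0.457). Cdc20, an activator of the ubiquitin ligase that ends mitosis, changed by -0.04 ± 0.15 (adjusted p = 0.884). Birc5 and Bub1b came closest, at 0.29 ± 0.10 (adjusted p = 0.0507) and 0.35 ± 0.12 (adjusted p = 0.0555), and both passed when either ERKO oil replicate was left out. Birc5 passed also without either MOER oil replicate, and Mybl2 passed without replicate 2 of wild type oil or of wild type PPT. Birc5 encodes survivin of the chromosomal passenger complex and Bub1b a kinase of the spindle checkpoint.

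Of the 9 dim members, 3 rose in a fit with no limit on dim values, in which 21 of all 41 members rose and 0 fell, where 9.31% of all 28815 probe sets rose and 9.54% fell. Mki67, the gene of the proliferation marker Ki-67, read 30.2 and 29.3 under oil and 54.7 and 55.6 under PPT, a change of 0.64 ± 0.14 (adjusted p = 0.00818). Since it was dim under oil the rise is bounded at 1.02-fold or more, and on the MOER and ERKO arrays it stayed below both wild type PPT arrays. Mki67 read 36.9 and 34.7 under oil and 32.1 and 46.6 under PPT in MOER, and 45.7 and 47.4 and then 52.5 and 38.4 in ERKO. Bub1, a checkpoint kinase, read 17.6 and 15.1 and then 48.2 and 62.2, at least 1.02-fold higher, with a fitted change of 1.13 ± 0.18 (adjusted p = 0.000927). Tpx2, a spindle assembly factor, was dim in both wild type groups, at 19.2 and 29.2 under oil and 42.2 and 39.4 under PPT, so its change of 0.51 ± 0.13 (adjusted p = 0.0187) lies below the limit used for all other tests. The remaining 6 changed by -0.06 to 0.66 with adjusted p of 0.0619 to 0.844.

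The second comparison asks whether receptor at the membrane alone gives the same response. In MOER livers 0 of 32 tested members rose or fell by limma, where 2.35% of all probe sets rose and 2.31% fell. At an unadjusted p under 0.05 there were 4 members, all higher, where 15.1% of all probe sets passed in either direction. The Cyber-T-style rule called 0 members and 0.889% of all probe sets. The median over the 41 members was 0.04, against 0.0021 over all genes, and single members ran from -0.26 to 0.34. The lowest adjusted p was that of Top2a, 0.11, with 53.9 and 53.0 under oil, both dim, and 67.4 and 76.2 under PPT. Its MOER PPT arrays lay above the oil arrays and below the wild type PPT arrays.

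The members with the largest rises in wild type livers had small fitted changes in MOER livers. Mcm3 read 64.6 and 61.4 under oil and 58.9 and 57.9 under PPT, a change of -0.09 ± 0.10. Myc read 41.5 and 45.6 and then 41.2 and 40.8, a change of -0.06 ± 0.13. Cdk1 read 108 and 111 and then 129.7 and 82.7, with the PPT arrays on both sides of the oil arrays and a change of -0.06 ± 0.22. Mcm6 had the higher change, 0.30 ± 0.19 (adjusted p = 0.538), with 101.18 and 75.1 under oil, 116 and 107 under PPT. Its arrays did not overlap, as was so for 48.1% of all probe sets in MOER. The median standard error of a member's change was 0.127. The MOER oil arrays are those with pancreatic acinar markers, of which 8 of 9 tested fell with PPT, and their part in the values of the members was not tested.

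**Figure D3:**
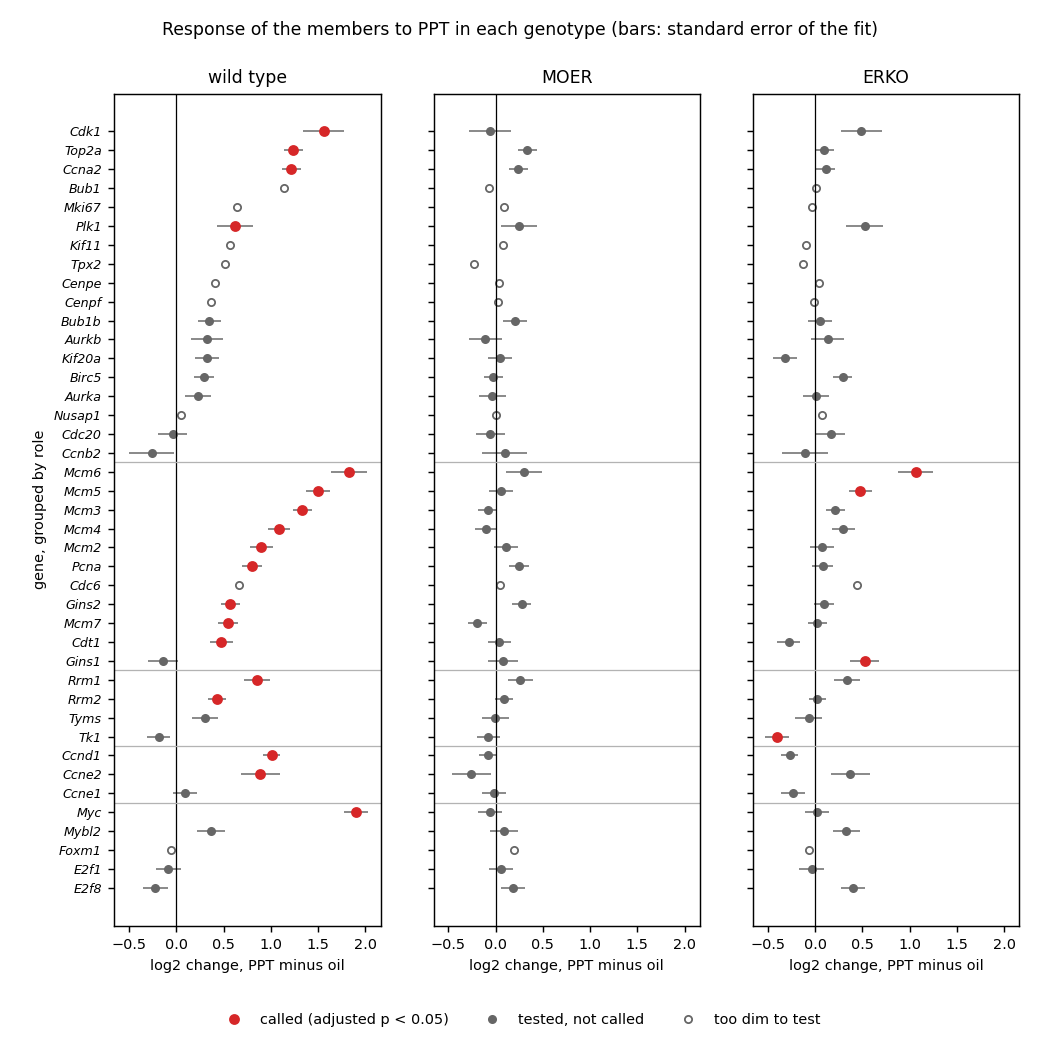
Log2 change with PPT for each member in wild type, MOER and ERKO livers, with bars for the standard error of the fit, red points for changes that passed the test, grey points for tested members that did not, and open points for members too dim to test. The wild type panel has 18 red points, the MOER panel 0 and the ERKO panel 4.

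The third comparison serves as the background of the agonist where the receptor gene is knocked out. In ERKO livers 3 of 32 tested members rose and 1 fell, where 9.48% of all probe sets rose and 8.46% fell, so the share called is near that of all probe sets. By limma at an unadjusted p under 0.05, 10 members were higher and 4 lower, where 32.2% of all probe sets passed in either direction. The Cyber-T-style rule called 1 member, where it called 1.52% of all probe sets. Over the 41 members the median change was 0.07, against 0.020 over all genes. All 3 rises lay among the 10 tested genes of replication licensing and the fork. The 11 measured genes of that role had a median of 0.21, and 10 of them changed upward.

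Mcm6 was the firmest of the 4. Its ERKO arrays read 105 and 65.2 under oil and 219.9 and 167 under PPT, a rise of 1.06 ± 0.19 (adjusted p = 0.00405) that was kept whichever array was left out. Mcm5 read 60.7 and 56.4 and then 76.6 and 100.74, a rise of 0.48 ± 0.13 (adjusted p = 0.025), lost without replicate 2 of ERKO oil and without replicate 2 of ERKO PPT. Of the 3 members that rose in ERKO livers these 2 rose in wild type livers too, where 18 of the 32 tested members rose. The responses share no arrays but come from 1 fit with a shared estimate of spread. Gins1 rose by 0.52 ± 0.16 (adjusted p = 0.0444), from 202 and 143 to 265 and 239.5, and Tk1 fell, with 258 and 206 and then 164 and 177, -0.40 ± 0.12 (adjusted p = 0.049). In MOER Gins1 read 153 and 139.8 and then 136 and 178, and Tk1 223 and 191 and then 207 and 184. In ERKO both had arrays that did not overlap, as was so for 49.9% of all probe sets. The Gins1 call was lost in 9 and the Tk1 call in 11 of the 12 fits that left out 1 array.

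The ERKO counts changed with which array was left out, for ERKO oil and for other groups too. The ERKO oil arrays were the pair that agreed least with each other. Without replicate 1 of ERKO oil 9 members rose and 0 fell, with Cdk1, Birc5, Ccne2, Mcm3, Mcm4 and Rrm1 added. Without replicate 2 of ERKO oil 2 rose and 2 fell, with Plk1 and Ccnd1 added and Mcm5 and Gins1 lost. Cdk1 shows the spread: its ERKO oil arrays read 115 and 63.97 and its ERKO PPT arrays 126 and 130.3, a change of 0.49 ± 0.22 (adjusted p = 0.151). Myc, at 50.3 and 38.7 and then 47.4 and 43.1, and Top2a, at 61.9 and 58.8 and then 72.5 and 59.2, changed by 0.02 ± 0.13 and 0.10 ± 0.10.

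Whether the responses differ between genotypes was tested directly. The wild type response exceeded the MOER response in 13 of 32 tested members and fell below it in 0, where 10.5% of all probe sets were called higher and 11.1% lower. It exceeded the ERKO response in 15 and fell below it in 1, where 10.3% were called higher and 12% lower. These comparisons share the 4 wild type arrays, so they are given side by side and not as separate support. Both counts include Myc, which entered the test only through its wild type PPT arrays. The count against ERKO includes Kif20a, whose values lie near background.

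Mcm3, dim in MOER PPT and in no other group, differed by 1.42 ± 0.14 (adjusted p = 4.4e-05) from MOER and by 1.12 ± 0.14 (adjusted p = 0.00026) from ERKO. Ccnd1 differed by 1.09 ± 0.13 (adjusted p = 0.000129) and 1.28 ± 0.13 (adjusted p = 4.84e-05). It read 267 and 284 under oil and 247 and 271 under PPT in MOER, and 279 and 265 and then 216 and 231 in ERKO. Top2a, dim in MOER oil, differed by 0.90 ± 0.14 and 1.14 ± 0.14, and neither difference passed when its 2 probe sets were averaged. Myc was dim in all 4 MOER and ERKO groups and entered the test through its wild type PPT arrays. Its fitted differences, 1.97 ± 0.18 and 1.88 ± 0.18 (adjusted p = 2.54e-05 and 3.63e-05), therefore depend on the added 16 and are no measure of size.

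Among the kinases and cyclins of mitosis Ccna2 read 93.2 and 92.6 under oil and 105 and 120.3 under PPT in MOER, and 94.8 and 97.9 and then 100.90 and 110.4 in ERKO. None of these arrays reached the wild type PPT arrays, and the wild type response was higher by 0.98 ± 0.14 against MOER (adjusted p = 0.000642) and 1.10 ± 0.14 against ERKO (adjusted p = 0.000329). For Cdk1 the differences were 1.62 ± 0.31 (adjusted p = 0.0034) and 1.07 ± 0.31 (adjusted p = 0.0315). Plk1 read 74.0 and 94.4 and then 100.97 and 103 in MOER and 59.8 and 87.0 and then 108 and 114 in ERKO. The wild type PPT arrays, 97.1 and 116, lay on either side of those of MOER and ERKO, and its differences of 0.38 ± 0.27 and 0.10 ± 0.27 did not pass (adjusted p = 0.402 and 0.853).

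For 5 of the helicase genes the wild type response was the higher in both comparisons. Mcm5 read 70.5 and 63.5 under oil and 67.7 and 73.1 under PPT in MOER, and its differences were 1.44 ± 0.18 against MOER and 1.02 ± 0.18 against ERKO (adjusted p = 0.00019 and 0.00206). Mcm4 read 79.8 and 63.2 and then 62.0 and 68.5 in MOER and 72.3 and 57.7 and then 83.7 and 83.0 in ERKO, with differences of 1.19 ± 0.17 and 0.79 ± 0.17 (adjusted p = 0.000457 and 0.00649). On no MOER or ERKO array did either reach the wild type PPT level. Mcm2 read 81.1 and 84.9 under oil and 85.1 and 96.5 under PPT in MOER, and 72.1 and 98.05 and then 83.4 and 95.9 in ERKO. It differed by 0.79 ± 0.18 and 0.83 ± 0.18 (adjusted p = 0.00824 and 0.00677). Mcm7 read 134 and 140.1 under oil and 115 and 119.8 under PPT in MOER, and 135 and 125 and then 144 and 122 in ERKO. All these Mcm2 and Mcm7 arrays lay below the wild type PPT arrays, and Mcm7 differed by 0.74 ± 0.15 and 0.52 ± 0.15 (adjusted p = 0.00401 and 0.0265). The Mcm7 call against ERKO was lost with no limit on dim values, with those genotypes fitted alone, and in some fits that left out 1 array. Mcm3 read 66.4 and 55.6 under oil and 77.6 and 68.6 under PPT in ERKO. Pcna read 1046 and 1033 and then 1349 and 1129.6 in MOER and 1277 and 1118 and then 1300.2 and 1229.8 in ERKO, and differed by 0.56 ± 0.15 and 0.72 ± 0.15 (adjusted p = 0.0242 and 0.00648). The Pcna call against MOER was lost when any 1 of the 4 wild type arrays was left out, and without either MOER oil replicate or replicate 2 of MOER PPT.

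Mcm6 was called against MOER. Its wild type response exceeded that of MOER by 1.52 ± 0.27 (adjusted p = 0.00202), while its excess over ERKO, 0.76 ± 0.27, did not pass (adjusted p = 0.0682). With the replicate number as a block it passed, at 0.76 (adjusted p = 0.0192). Ccne2 read 39.3 and 27.9 under oil and 23.3 and 27.3 under PPT in MOER, and 62.8 and 32.1 and then 73.1 and 55.6 in ERKO. It was likewise called against MOER, at 1.15 ± 0.29 (adjusted p = 0.0169), where it was dim on all 4 MOER arrays, and not against ERKO, at 0.51 ± 0.29 (adjusted p = 0.25). The Ccne2 call against MOER was lost without replicate 2 of wild type oil, without replicate 2 of wild type PPT, and without replicate 1 of MOER oil or of MOER PPT.

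Cdt1, Gins2, Rrm2 and Kif20a were called against ERKO, at 0.76, 0.48, 0.40 and 0.64. Against MOER they gave 0.44, 0.30, 0.34 and 0.28, none of which passed. The Rrm2 call against ERKO was lost in 11, and those of Gins2, Kif20a and Cdk1 in 6 each, of the 12 fits that left out 1 array. Cdt1 read 54.5 and 47.9 under oil and 56.3 and 49.8 under PPT in MOER, and 57.4 and 47.8 and then 40.2 and 40.6 in ERKO, where the PPT arrays were the lower ones. It was dim in both MOER groups and in ERKO PPT. Gins2 read 51.6 and 60.9 and then 75.5 and 67.1 in MOER and 67.5 and 65.4 and then 74.5 and 69.6 in ERKO. With the replicate block Rrm2 did not pass against ERKO (adjusted p = 0.0604). Rrm2 read 67.8 and 68.7 under oil and 72.0 and 75.2 under PPT in MOER, and 72.5 and 67.5 and then 67.2 and 76.0 in ERKO, all below both wild type PPT arrays. Rrm1 read 221 and 191 under oil and 231 and 269 under PPT in MOER. It did not differ past the threshold, at 0.59 ± 0.19 against MOER and 0.51 ± 0.19 against ERKO (adjusted p = 0.0518 and 0.0845). Its ERKO arrays were high under oil already, 311 and 231, with 351 and 336 under PPT, so that they overlapped the wild type PPT arrays.

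Kif20a, a kinesin of cytokinesis, was dim on all 4 wild type arrays, at 36.2 and 39.7 under oil and 55.0 and 47.9 under PPT, and read 49.3 and 55.3 under oil and 60.4 and 48.8 under PPT in MOER, and 53.8 and 63.4 and then 38.4 and 49.5 in ERKO. It was dim in ERKO PPT as well, and neither its wild type change, 0.32 (adjusted p = 0.0811), nor its ERKO change, -0.32 (adjusted p = 0.11), passed, so its difference rests on values near background. E2f8 was the member with the lower wild type response, -0.63 ± 0.18 against ERKO (adjusted p = 0.0334), with 71.0 and 68.0 and then 110.2 and 85.2 in ERKO, and it read 67.1 and 54.1 and then 76.2 and 65.3 in MOER. In neither genotype alone did E2f8 pass, and its call against ERKO was lost with no limit on dim values. The count against ERKO dropped to 10 without replicate 2 of wild type oil, with Cdk1, Kif20a, Mcm7, Gins2, Rrm2 and E2f8 lost.

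Between MOER and ERKO responses limma called 0 of 32 members, where 5.88% of all probe sets were higher in MOER and 5.59% lower. At an unadjusted p under 0.05 there were 3 members, all lower in MOER, where 26.2% of all probe sets passed in either direction. Mcm6 was the closest, -0.76 ± 0.27 (adjusted p = 0.0964), and with the replicate number as a block it was called (adjusted p = 0.034), which made the count 1. Without replicate 1 of ERKO oil 6 members were called lower in MOER, namely Cdk1, Ccne2, Mcm3, Mcm4, Mcm6 and Gins1. The median standard error of these differences was 0.18.

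**Figure D4:**
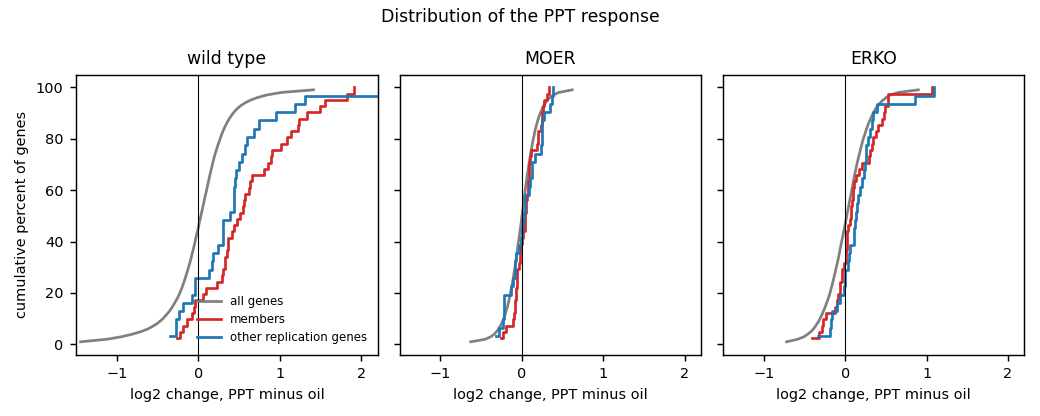
Cumulative percent of genes against the log2 change with PPT in each genotype, for all genes in grey, the 41 members in red and the other replication genes in blue. The red and blue lines lie to the right of the grey line in wild type livers, with member changes of -0.26 to 1.91. In MOER livers they lie close to it. In ERKO livers the median was 0.07 for the members and 0.13 for the other replication genes, against 0.020 for all genes. Uhrf1, 1 of the blue genes, lies beyond the right edge in wild type.

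Under oil the genotypes were compared without the agonist. ERKO minus wild type gave 0 of 32 members called, where 2.24% of all probe sets were higher and 2.77% lower. MOER minus wild type gave 0, where 2.13% were higher and 3.53% lower, and MOER minus ERKO gave 0, where 0.894% were higher and 1.16% lower. At an unadjusted p under 0.05 limma passed 4, 4 and 2 members in these 3 comparisons, where it passed 23.3%, 25.2% and 16.3% of all probe sets. The Cyber-T-style rule called 0 members in each, and 0.549%, 0.947% and 0.403% of all probe sets. Rrm1 came closest in ERKO, with 311 and 231 against 180.0 and 180.2 in wild type, 0.53 ± 0.14 (adjusted p = 0.0516). E2f8 came closest in MOER, with 67.1 and 54.1 against 87.0 and 90.2, -0.45 ± 0.13 (adjusted p = 0.0703). Same-numbered oil arrays deviated together, at r = 0.276 to 0.377 for the 3 pairs of oil groups, and with the replicate number as a block E2f8 was called lower in MOER (adjusted p = 0.0363), a count of 1. Single members differed by -0.30 to 0.53 between ERKO and wild type and by -0.45 to 0.38 between MOER and wild type.

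A wider list of 143 other cell cycle genes, 137 of them measured and 107 tested, gave 40 that rose and 18 that fell in wild type livers, 3 and 4 in MOER, and 12 and 6 in ERKO. Of all probe sets 14.8% rose and 16.2% fell in wild type livers, so the 18 wild type falls lie near that share. The shares in MOER and ERKO lie near those of all probe sets given above. The MOER count of 7 rose to 16 without either ERKO oil replicate and dropped to 2 without replicate 1 or 2 of MOER oil or replicate 1 of MOER PPT. The ERKO count of 18 rose to 40 without replicate 1 of ERKO oil and dropped to 9 and 6 without replicate 1 and 2 of ERKO PPT. Other replication genes had 15 rises and 1 fall among 29 tested, with a median of 0.39 over the 31 measured. In MOER livers 0 of these 29 were called, and in ERKO livers 3 rose. Uhrf1, which carries DNA methylation across replication, was dim under oil at 30.2 and 24.0 and read 364 and 322 after PPT, a rise of at least 6.35-fold (adjusted p = 2.58e-07). Fen1, the flap nuclease of the lagging strand, rose by 1.303 ± 0.12, from 65.5 and 52.1 to 176 and 159.7. Prim1, the primase subunit, rose in wild type by 0.96 ± 0.16 and in ERKO by 1.09 ± 0.16, while it gave 0.25 ± 0.16 in MOER (adjusted p = 0.565). Pole2 rose by at least 1.51-fold and Cdc45 by 0.53 ± 0.09. The exception was Mcm10, which fell by 0.35. Being high on the 2 wild type PPT arrays was enough to pass the limit on dim values. Uhrf1 and Pole2, dim under oil, may have entered the test and the count of 15 that way.

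Cyclins and kinases outside the given list had 6 rises and 1 fall among 15 tested in wild type. Beside these stand 14.8% and 16.2% of all probe sets. Chek1, a kinase of the replication checkpoint, read 45.1 and 55.3 under oil and 282 and 291 under PPT, a rise of 2.197 ± 0.13 (adjusted p = 6.53e-07). It rose also in ERKO, by 1.41 ± 0.13 (adjusted p = 7.13e-05), and gave -0.03 ± 0.13 in MOER. Cks1b, a subunit bound to cyclin-dependent kinases, rose by 1.89 ± 0.15. Cdk4 and Ccnd2, the kinase and cyclin of early G1, rose by 0.65 ± 0.11 and 0.68 ± 0.11, and Ccnf by 0.73 ± 0.13. In MOER livers 1 of the 15 was called, Cks2, which fell.

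Among 20 tested genes of mitosis outside the given list 8 rose and 4 fell in wild type. Of all probe sets 14.8% rose and 16.2% fell there. Mad2l1, a spindle checkpoint protein gene, read 220.5 and 190.2 under oil and 5469.9 and 5148 under PPT, a rise of 4.59 ± 0.13 (adjusted p = 2.84e-09), with 154 to 251 on the 8 MOER and ERKO arrays. Kif23, Nuf2 and Pbk, dim under oil, rose by at least 2.93, 1.79 and 1.58-fold. These 3 may have entered the test, and the count of 8, only by being high on the wild type PPT arrays. Pttg1, which encodes securin, moved otherwise: it fell in wild type, -0.69 ± 0.10, fell in ERKO, -0.52 ± 0.10, and rose in MOER, 1.04 ± 0.10 (adjusted p = 0.000142). Of the 42 measured genes of this group 22 were too dim to test.

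**Figure D5:**
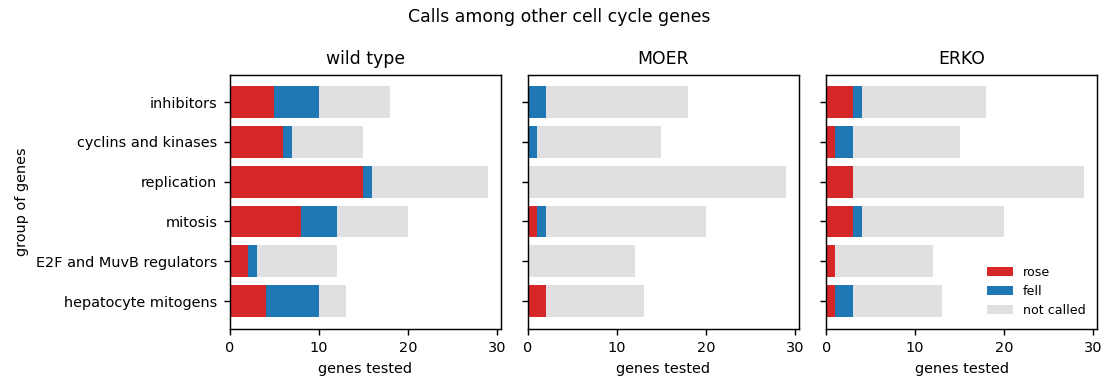
Bars count the tested genes of 6 groups of other cell cycle genes in each genotype, split into those that rose (red), fell (blue) and were not called (grey). Replication genes have the longest red bar in wild type, 15 of 29.

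Inhibitors of the cycle had as many rises as falls in wild type, 5 and 5 of 18 tested, where 14.8% of all probe sets rose and 16.2% fell. The Gadd45 genes, which act in growth arrest and stress, all rose: Gadd45g from 86.9 and 66.0 to 1605 and 1468 (4.08 ± 0.19), Gadd45b by 1.82 ± 0.12 and Gadd45a by 1.28 ± 0.10. Gadd45b rose also in ERKO, by 0.55 ± 0.12 (adjusted p = 0.0132). Rbl2, the retinoblastoma relative p130 found in resting cells, fell from 442 and 425 to 209.8 and 214, -0.98 ± 0.12. Tob1, an antiproliferative gene, fell in all 3 genotypes, with -0.60 ± 0.09 in ERKO, -0.45 ± 0.09 in MOER and -1.19 ± 0.09 in wild type.

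Of 12 tested E2F and MuvB regulators 2 rose in wild type, E2f4 by 0.47 ± 0.14 and Tfdp1 by 0.49 ± 0.17, and 1 fell, Tfdp2, -1.23 ± 0.11. These counts lie near or below the shares of all probe sets in wild type, 14.8% and 16.2%. E2f2 and E2f7, both dim under oil, did not pass there (adjusted p = 0.23 and 0.281). E2f2 rose in ERKO, by 0.42 ± 0.13 (adjusted p = 0.0486). In the group of growth factors, their receptors and early genes for hepatocytes 4 rose and 6 fell of 13 tested. Egfr, the receptor of epidermal growth factor, read 879 and 880.5 under oil and 292 and 293 under PPT in wild type, -1.54 ± 0.08, and rose in MOER (0.64 ± 0.08) and in ERKO (0.39 ± 0.08). Fgfr4 and Il6ra fell in wild type, -1.23 ± 0.13 and -0.94 ± 0.09, and in ERKO, -0.60 ± 0.13 and -0.33 ± 0.09 (adjusted p = 0.00944 and 0.033). Tgfb1, an inhibitor of hepatocyte growth, rose by 0.89 ± 0.10 in wild type. Mycn, a relative of Myc, was dim under oil at 21.3 and 33.2 and rose at least 3.66-fold to 207 and 188. It too may have entered the test only by being high on the wild type PPT arrays.

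Markers of other liver cells moved in the same arrays as the wild type rises, where 14.8% of all probe sets rose and 16.2% fell. Of 11 macrophage markers 5 rose and 1 fell, with a summed intensity of 10850 to 11180 under oil and 13720 to 13860 under PPT. Of 5 monocyte markers 4 rose, with sums of 777 to 778 and then 1194 to 1279. Of 8 tested neutrophil markers 5 rose, with sums of 377 to 402 and then 4194 to 4252, most of it from Prtn3, which read 66.7 and 54.7 and then 3634 and 3575. Mpo, another defining marker of neutrophil precursors, was dim in both, at 31.9 and 19.1 and 23.2 and 23.5. Marker sums of hepatocytes were 92840 to 93410 under oil and 75500 to 81800 under PPT, with 2 of 7 markers fallen. Endothelial markers had 1 rise and 4 falls of 8, with sums of 6271 to 6526 and then 3749 to 3823. Of T and NK cell markers 0 of 5 tested rose and 1 fell, of B cell markers 2 of 5 rose, and of red cell precursor markers 1 of 6 rose, Tfrc, and 1 fell. Of stellate cell markers 2 of 8 fell, of bile duct markers 0 of 3 were called, and of acinar and platelet markers 1 of 9 and 1 of 4 rose. No marker stood at 0 in any group.

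In MOER livers, where 0 members were called, 4 of 11 macrophage markers rose and 1 fell, with sums of 12180 to 12350 under oil and 15160 to 15430 under PPT, and 2 of 5 monocyte markers rose. Of all probe sets 2.35% rose and 2.31% fell in MOER. In ERKO livers 5 of 11 macrophage markers and 5 of 8 neutrophil markers fell, where 8.46% of all probe sets fell. The part of these cells in the members' changes was not tested.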

How the data were processed

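The members, the wider lists and the cell type markers were chosen with earlier results of these data known, so they are no independent evidence of a direction. Liver RNA pools from 6 groups of 2 arrays were read on an Affymetrix mouse gene array. The authors deposited 1 intensity per probe set and array on a linear scale, for 28815 probe sets. How these were summarised and normalised is not stated in the labels. The labels' protocols name Cyber-T and a 2-fold minimum as the authors' own test.

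Intensities were taken as log2(intensity + 16), with no further normalisation, so changes of dim genes are understated. All 12 arrays entered 1 limma fit (version 3.58.1 in R 4.3.3) of 6 group means. Tests were two-sided, and p-values were adjusted by Benjamini-Hochberg over 19119 probe sets, those that exceeded the array's 40th percentile on at least 2 arrays. A group is called dim where both arrays lie under that percentile, and a rise from it is then a bound of at least N-fold. The array number limits the precision. Gene symbols came from GEO's platform annotation, and promoters from RefSeq (GRCm38.p6).

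Values on each array are given for members called in any PPT response or difference between responses, and for Ccnd1, Myc, Pcna and Mki67 in any case. From each group of the wider list the 5 genes with the smallest wild type p are named, and others named there were chosen after their values were seen. The cell type lists were hepatocyte, macrophage, monocyte, T and NK cell, B cell, neutrophil, red cell precursor, endothelial, stellate, bile duct, acinar and platelet markers. Alternatives changed the pseudocount, the limit on dim values, the normalisation, the variance model, the arrays in the fit, the probe set of a gene, the replicate block and the test, or left out each array. The code was tested on simulated data.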

Additional observations from a re-analysis of the deposited data

Results flagged for a closer look

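A direct test of the difference between the PPT responses of 2 genotypes singled out 29 results, each given as the log2 response of wild type minus that of the other genotype (limma, Benjamini-Hochberg adjusted p under 0.05).

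Against MOER the wild type response was higher for the G1 cyclins Ccnd1 (1.09) and Ccne2 (1.15), and the helicase genes Mcm2 (0.79), Mcm3 (1.42), Mcm4 (1.19), Mcm5 (1.44), Mcm6 (1.52) and Mcm7 (0.74). It was higher too for the clamp gene Pcna (0.56) and for Cdk1 (1.62), Ccna2 (0.98) and Top2a (0.90) of mitosis. Myc (1.97) was dim in all MOER and ERKO groups, and Ccne2 in both MOER groups, so the size of these differences is not measured. Top2a was dim in MOER oil and Mcm3 in MOER PPT.

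Against ERKO the wild type response was higher for Ccnd1 (1.28), Mcm2 (0.83), Mcm3 (1.12), Mcm4 (0.79), Mcm5 (1.02), Mcm7 (0.52), Cdt1 (0.76), Gins2 (0.48), Pcna (0.72) and Rrm2 (0.40). The mitotic genes higher in wild type were Cdk1 (1.07), Ccna2 (1.10) and Top2a (1.14). Kif20a (0.64) was dim in both wild type groups and in ERKO PPT, passed in neither response alone, and lost its call in 6 of the 12 fits that left out 1 array. Cdt1 was dim in ERKO PPT, and Myc (1.88) in both ERKO groups. E2f8 had the lower wild type response, -0.63.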

How the results depend on the processing

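In wild type livers the count of 18 members was 16 to 21 under the alternatives other than the Cyber-T-style test, which gave 9, and 16 to 20 with 1 array left out. MOER gave 0 under every alternative run. The ERKO count of 4 was 2 with pseudocount 1, 2 with no limit on dim values, 7 with quantile normalisation, 1 with genotypes compared alone, 1 with the Cyber-T-style test and 1 to 9 with 1 array left out. Wild type minus ERKO, 16 called, ranged from 10 to 17 with 1 array left out, and MOER minus ERKO, 0 called, from 0 to 6. Under oil, ERKO minus wild type gave 1 with pseudocount 64, the limit on the mean of all arrays, quantile normalisation or a trended variance, and 0 to 2 with 1 array left out. MOER minus wild type gave 1 with quantile normalisation, median centring or genotypes compared alone, and 0 to 1 with 1 array left out, where MOER minus ERKO gave 0 to 2. For the wider list the Cyber-T-style test gave 18, 1 and 3 genes in wild type, MOER and ERKO, in place of 58, 7 and 18. Its MOER count was 11 with quantile normalisation and 2 to 16 with 1 array left out, and its ERKO count was 5 with genotypes compared alone and 6 to 40 with 1 array left out. The cause of these shifts was not tested. With the replicate block MOER minus ERKO gave 1 and MOER minus wild type under oil gave 1, and the block gave 18 in wild type, 6 in ERKO, 13 for wild type minus MOER and 16 for wild type minus ERKO. Same-numbered arrays correlated at -0.147 to 0.377 in their deviations, over 0.1 in 5 of 15 pairs of groups, among them the 3 pairs of oil groups. The labels do not say that a number marks a shared repeat, so the pairing is a hint from the data for the oil arrays and was not shown for the others. Of 51 results for single members 25 were tested and passed under every alternative and 0 reversed. In 8 of the 51 the member was untested under at least 1 alternative, as Myc was with the limit set on the MOER and ERKO arrays alone. The design has 2 arrays a group, and 9 members too close to the background of their arrays were not tested in the main comparison. The Cyber-T-style test was not run on differences between responses.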
